A study of Homo sapiens with 6 samples.

Results

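The genes described here are 45 lysosomal genes, chosen by symbol from the 57232 genes of an RNA-seq table: the lysosomal beta-galactosidase GLB1, other hydrolases and their helpers, membrane proteins, subunits of the proton pump and 2 transcription factors, TFEB and TFE3. All 45 symbols were found in the table, and 42 of them averaged at least 1 FPKM (sequenced fragments divided by gene length in kilobases and by library size) over the 6 libraries and were tested. The cells were IMR90, a line of human fetal lung fibroblasts, at passage 13. They were infected with ARID1B cDNA (3 libraries) or with an empty vector (3 libraries), kept in puromycin until day 4 and collected on day 6 after infection. ARID1B is a DNA-binding subunit of the SWI/SNF chromatin remodeling complex. All cells of both groups carried an integrated vector and had been through drug selection, all came from 1 cell line, and the promoter of the vector is not given in the sources used here. The comparison asks whether RNA of the lysosome changes with ARID1B, since the study also stained such cells for senescence-associated beta-galactosidase (SA-beta-Gal). The staining measures enzyme activity and is not in the files used here.

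Lysosomes are acidic organelles that break down proteins, sugars, lipids and nucleic acids. A proton pump in their membrane, the V-ATPase, keeps the lumen acidic, and hydrolases of many kinds work there at low pH. SA-beta-Gal staining is a widely used mark of senescent cells and reads the activity of GLB1 at a pH above its optimum, where it becomes visible when cells hold much of the enzyme. Many lysosomal genes carry a short DNA motif to which TFEB, TFE3 and their relatives bind, and these factors move between the cytoplasm and the nucleus with the nutrient state of the cell, so that their activity need not follow their RNA. Values from bulk RNA cannot tell fewer cells of a type apart from less RNA per cell.

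ARID1B itself was measured at 32.5, 21.0 and 28.3 FPKM in the ARID1B libraries, against 2.29, 1.31 and 2.05 FPKM in the vector libraries, a log2 change of 3.29 with an SE of 0.21 (limma, adjusted p = 0.0255). Library totals recovered from the FPKM steps lay between 70022493 and 91924514 reads or fragments for ARID1B and between 63386813 and 90548577 for the vector. Vector replicate 2 stood apart on the first principal component, which held 63.8% of the variance: it lay at -48.5, and the other 5 libraries lay between -3.63 and 20. In each group replicate 3 lay near a mixture of replicates 1 and 2 (69.3% of replicate 1 for ARID1B and 81.9% for the vector), and whether the libraries numbered 3 are separate cultures was not tested. The p-values here treat all 3 libraries of a group as independent. Of 12 lung fibroblast markers, 11 averaged at least 1 FPKM, and none of 13 macrophage and blood markers did. The summed level of those 13 was 0.184 to 0.239 FPKM in ARID1B libraries and 0.183 to 0.417 FPKM in vector libraries, with CD3E, MARCO, MRC1 and MS4A1 at 0 in every library. Of the other markers, 2 of 9 epithelial (KRT18 and KRT19), 1 of 5 endothelial (TEK) and 3 of 5 smooth muscle genes (ACTG2, CNN1 and SMTN) averaged at least 1 FPKM. Their summed levels were 11.9 to 18.8, 1.83 to 3.64 and 122 to 129 FPKM in ARID1B libraries, against 9.14 to 24.3, 0.903 to 3.68 and 74.4 to 129 FPKM in vector libraries, and their part in the results was not tested. Over all 10416 genes tested, 3 were higher in ARID1B libraries at an adjusted p under 0.05 (0.0288%) and 0 were lower (0.0%), while 483 and 619 had an unadjusted p under 0.05 in these directions. Without vector replicate 2 these counts were 125 genes higher (1.2%) and 199 lower (1.91%).

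No lysosomal gene passed the test in either direction. Among the 42 tested, 20 had a positive and 22 a negative log2 change (ARID1B minus vector, on log2(FPKM + 1)), with a median of -0.03, beside -0.02 over all genes tested. At an unadjusted p under 0.05, 3 genes were higher (FUCA1, ARSB and IDS), against a background of 4.64% of all genes, and 0 were lower, against 5.94%. The lowest adjusted p of a member in limma was 0.397, and voom, run on reads recovered from the FPKM values, called 0 members too. In 5 members every ARID1B library lay above every vector library, and in 5 every one lay below. All genes tested gave 9.44% above and 11.1% below. Together the members are 23.8% of the members tested, where 20.5% of all genes tested showed no overlap. The summed level of the 45 genes was 1168, 1200 and 1140 FPKM in ARID1B libraries, against 1248, 1157 and 1235 FPKM in vector libraries, so the groups overlapped in their total as well.

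GLB1 (ENSG00000170266) encodes the enzyme that SA-beta-Gal staining reads. Its level was 11.4, 11.5 and 10.98 FPKM in ARID1B libraries, against 11.5, 8.22 and 10.99 FPKM in vector libraries. Vector replicate 2 was the lowest of the 6, and the other vector libraries lay within the narrow range of the ARID1B libraries. The means were 11.3 ± 0.286 FPKM with ARID1B and 10.2 ± 1.75 FPKM with the vector (SD, n = 3 each). The log2 change was 0.145 with an SE of 0.14 and a 95% interval from -0.20 to 0.49, which is 0.871-fold to 1.40-fold on the FPKM + 1 scale (limma, adjusted p = 0.738). An exact two-sided permutation test over the libraries gave p = 0.5, where 0.1 is the smallest p that 3 against 3 libraries allow. Leaving out vector replicate 2 moved the log2 change of GLB1 to 0.0093 (limma, adjusted p = 0.958). The change was 0.20 with a correction for GC content and length (limma, adjusted p = 0.796). Without both libraries numbered 3 it was 0.22. These values held 7306, 7815 and 9235 reads in ARID1B libraries and 8442, 6807 and 6373 in vector libraries.

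In the lysosome GLB1 forms a complex with CTSA, a carboxypeptidase that protects it from breakdown, and with the sialidase NEU1. CTSA was at 60.2, 77.7 and 61.0 FPKM in ARID1B libraries, against 82.4, 69.4 and 81.1 FPKM in vector libraries. The highest ARID1B library overlapped with the lowest vector library, and the log2 change was -0.23 (SE 0.15; limma, adjusted p = 0.636). NEU1 had 8.60, 7.37 and 7.94 FPKM in ARID1B libraries, against 9.16, 8.97 and 9.03 FPKM in vector libraries. All 3 ARID1B libraries lay below the vector libraries, by a log2 change of -0.17 that missed the test (SE 0.10; limma, adjusted p = 0.615). Correcting both for GC content and length gave -0.035 for CTSA and -0.19 for NEU1. Without vector replicate 2 the log2 changes were -0.31 for CTSA and -0.17 for NEU1.

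**Figure D1:**
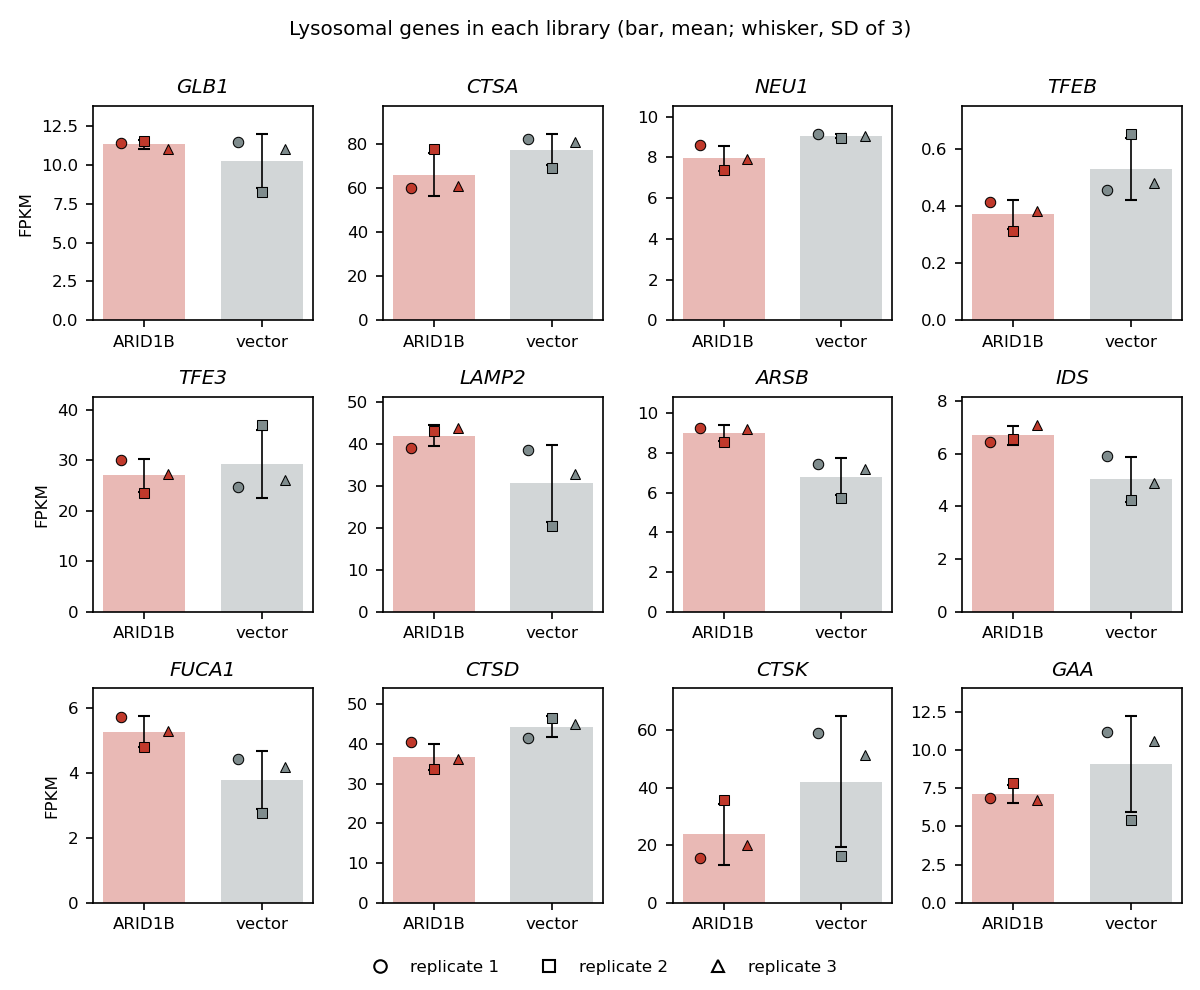
FPKM (linear axis, from 0) of 12 lysosomal genes in each library, with ARID1B libraries left of vector libraries, each point 1 library and bars giving mean ± SD (n = 3). GLB1 lies between 10.98 and 11.5 FPKM in the ARID1B libraries and at 11.5, 8.22 and 10.99 FPKM in the vector libraries, and vector replicate 2 is the lowest library for LAMP2 (20.5 FPKM) and GAA (5.44 FPKM).

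The regulators TFEB and TFE3 are basic helix-loop-helix leucine zipper factors that turn on lysosomal genes. TFE3 was by far the more abundant RNA, at 30.1, 23.6 and 27.4 FPKM in ARID1B libraries, against 24.7, 37.0 and 26.1 FPKM in vector libraries. The groups overlapped, vector replicate 2 was the highest library, and the log2 change was -0.097 (SE 0.19; limma, adjusted p = 0.852), or 0.078 without that library. TFEB stayed under the filter, at 0.414, 0.313 and 0.383 FPKM in ARID1B libraries, against 0.456, 0.652 and 0.478 FPKM in vector libraries. Every ARID1B library was below every vector library for TFEB, and the exact permutation p was 0.1, the smallest that 3 against 3 libraries allow. Groups that do not overlap always give this p, and 11.1% of all genes tested lay lower with no overlap. Its reads numbered 268, 214 and 325 in ARID1B libraries and 339, 545 and 280 in vector libraries. Just inside the filter lay NPC1, with a mean of 1.85 FPKM over the 6 libraries, and just outside it TFEB, with 0.449 FPKM.

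The binding motif of these factors was searched in RefSeq promoters (assembly GRCh38.p14, 250 bases before to 50 bases after each gene start), a table that matched 28 of the 45 genes. The 9-base motif GTCACGTGA, on either strand, was in promoters of 5 of these 28 genes (ATP6V0D1, CTSA, GAA, LAMP1 and MCOLN1), beside 1.01% of the 27305 genes in the table. Some genes have several promoters, and by promoter it was in 11.9% of 42 promoters of the members, beside 0.84% of all 35116. The shorter core CACGTG, which the longer motif contains, was in promoters of 10 of the 28 genes, beside 8.77% of all genes, and by promoter in 23.8%, beside 7.26%. GLB1 had no match to either motif in this window. All matches in these promoters are shown because TFEB and TFE3 are known to bind such letters. Capitals mark the motif, and each sequence is read 5′ to 3′ on the strand of its gene.
ATP6V0D1 chr16:67481200-67481228, minus strand: cccccttatgGTCACGTGAggcgcttgcg
CTSA chr20:45891299-45891327, plus strand: gcgccggagtTCACGTGACtcgtacacat
GAA chr17:80101493-80101521, plus strand: gggaggccgcGTCACGTGAcccaccgcgg
GAA chr17:80101538-80101566, plus strand: gctcccgccgGTCACGTGAcccgcctctg
LAMP1 chr13:113297200-113297228, plus strand: acccgcgggaTCACGTGACgcccgggcgc
LAMP1 chr13:113297237-113297245, plus strand: TCACGTGAC
MCOLN1 chr19:7522571-7522599, plus strand: accagaggcgGTCACGTGAggggctctgg
MCOLN1 chr19:7522598-7522623, plus strand: gggctaccggGTCACGTGAccgaggc

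The 5 genes with this motif had log2 changes of -0.22 (ATP6V0D1, a V-ATPase subunit), -0.23 (CTSA), -0.25 (GAA), -0.03 (LAMP1) and -0.14 (MCOLN1, a lysosomal cation channel), and none passed the test. Correcting for GC content and length gave -0.081, -0.035, -0.039, -0.076 and 0.11 in the same order. A match is a run of letters and was not shown to be bound in these cells.

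The 11 glycosidases, which cleave sugars from glycoproteins, glycolipids and glycosaminoglycans, had 3 positive and 8 negative log2 changes and a median of -0.15. Corrected for GC content and length, 4 were positive and 7 negative, with a median of -0.039. FUCA1, the alpha-L-fucosidase, was measured at 5.74, 4.79 and 5.30 FPKM in ARID1B libraries, against 4.42, 2.78 and 4.18 FPKM in vector libraries. Every ARID1B library lay above every vector library, by a log2 change of 0.40 (SE 0.17; unadjusted p = 0.0479 and adjusted p = 0.468 in limma). The change of FUCA1 was 0.24 when vector replicate 2 was left out, and 0.44 when corrected for GC content and length. NAGLU, an enzyme of heparan sulfate breakdown, showed the opposite order, at 7.37, 7.53 and 7.04 FPKM in ARID1B libraries, against 8.07, 9.47 and 8.64 FPKM in vector libraries. Its log2 change of -0.22 missed the threshold as well (SE 0.10; limma, adjusted p = 0.510), and with a correction for GC content and length it was 0.04. GUSB, the beta-glucuronidase, and MAN2B1, a lysosomal alpha-mannosidase, were also lower in every ARID1B library than in any vector library, with log2 changes of -0.21 and -0.15, which were -0.11 and -0.0011 with that correction.

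GAA, the acid alpha-glucosidase that degrades glycogen, was named after its values were seen, since it was the only member that passed the test in any of the 18 alternatives run. It had 6.83, 7.83 and 6.75 FPKM in ARID1B libraries, against 11.1, 5.44 and 10.6 FPKM in vector libraries. Vector replicates 1 and 3 were above, and vector replicate 2 below, all ARID1B libraries. With all 6 libraries the log2 change was -0.25 (SE 0.25; limma, adjusted p = 0.742), and -0.039 when corrected for GC content and length (limma, adjusted p = 0.988). Without vector replicate 2 it was -0.55 (limma, adjusted p = 0.0440), and with both steps together, a combination chosen after seeing the data, it was -0.40 (limma, adjusted p = 0.152). GLA, the alpha-galactosidase A, moved the other way with this library. Its level was 7.65, 7.65 and 7.34 FPKM in ARID1B libraries, against 6.06, 15.3 and 7.08 FPKM in vector libraries, so that the log2 change of -0.19 became 0.18 without vector replicate 2. The remaining log2 changes were -0.09 for HEXA (the alpha subunit of beta-hexosaminidase A), -0.07 for IDUA (alpha-L-iduronidase) and 0.03 for MANBA (beta-mannosidase).

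Sulfatases remove sulfate groups, mostly from glycosaminoglycans, and 3 of 4 had positive log2 changes, with a median of 0.21. ARSB, which acts on dermatan and chondroitin sulfate, was the most abundant of them. It was measured at 9.29, 8.55 and 9.20 FPKM in ARID1B libraries, against 7.47, 5.74 and 7.19 FPKM in vector libraries. The groups did not overlap, and the log2 change of 0.37 had the smallest p of all members (SE 0.12; unadjusted p = 0.0242 and adjusted p = 0.397 in limma). IDS, the iduronate sulfatase, was at 6.43, 6.55 and 7.09 FPKM in ARID1B libraries, against 5.91, 4.24 and 4.90 FPKM in vector libraries. Here too every ARID1B library was above every vector library (log2 change 0.36, SE 0.13; unadjusted p = 0.0313 and adjusted p = 0.421 in limma). The changes of both were 0.27 in the fit without vector replicate 2, and 0.28 for ARSB and 0.19 for IDS when corrected for GC content and length. SGSH, which removes sulfate from heparan sulfate, changed by 0.06, and ARSA, which acts on sulfatides, by -0.13.

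**Figure D2:**
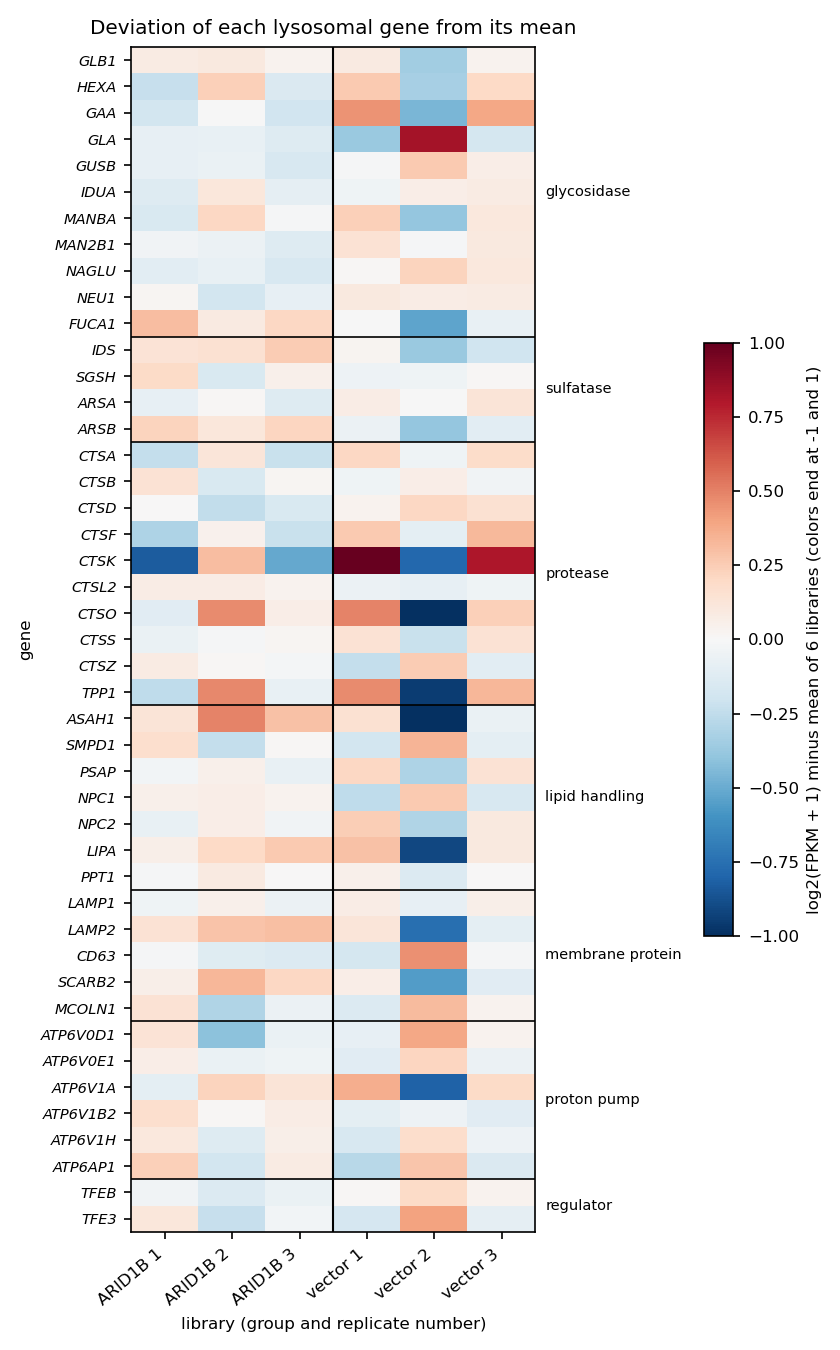
Deviation of log2(FPKM + 1) from the mean of the 6 libraries for the 45 lysosomal genes (rows, by role) in each library (columns, ARID1B libraries left of vector libraries). Vector replicate 2 holds the highest value of 15 and the lowest value of 20 of the 45 genes, so its column carries the strongest colors.

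Of the 10 proteases, 8 were tested, with 4 positive and 4 negative log2 changes and a median of -0.11. This median was -0.27 without vector replicate 2, with 2 positive and 6 negative, and 0.025 when corrected for GC content and length, with 5 positive and 3 negative. CTSA, described above, had the highest mean over all 6 libraries, close to that of CTSB. CTSD, the aspartic protease cathepsin D, had 40.4, 33.8 and 36.1 FPKM in ARID1B libraries, against 41.4, 46.6 and 45.0 FPKM in vector libraries. All ARID1B libraries were below all vector libraries, by a log2 change of -0.27 (SE 0.12; limma, adjusted p = 0.498), while correcting for GC content and length gave 0.018. CTSF, a cysteine protease, was at 3.41, 4.66 and 3.70 FPKM in ARID1B libraries, against 5.56, 4.12 and 5.86 FPKM in vector libraries. The groups overlapped through vector replicate 2, and the log2 change was -0.32 (SE 0.16; limma, adjusted p = 0.534). It was -0.455 without that library (limma, adjusted p = 0.105) and -0.084 when corrected for GC content and length.

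CTSK, a collagen-degrading cysteine protease best known from osteoclasts, had the most extreme negative log2 change of the members and was named for that after its values were seen. Its level was 15.7, 35.9 and 19.95 FPKM in ARID1B libraries, against 58.8, 16.3 and 51.3 FPKM in vector libraries. The 2 vector libraries other than replicate 2 were above every ARID1B library, while vector replicate 2 lay near the lowest ARID1B library. The log2 change was -0.69 with an SE of 0.53 (limma, adjusted p = 0.682), and without vector replicate 2 it was -1.25 (limma, adjusted p = 0.105). TPP1, a tripeptidyl peptidase, and CTSO, a cysteine protease, also turned on this library, from log2 changes of 0.10 and 0.28 with all 6 libraries to -0.35 and -0.23 without it. The log2 changes of the cysteine proteases CTSB and CTSZ were 0.0079 and 0.05. The proteases under the filter were CTSL2 and CTSS. CTSL2 was at 0.285, 0.283 and 0.250 FPKM in ARID1B libraries, against 0.174, 0.149 and 0.181 FPKM in vector libraries. It did not overlap between the groups, from 40, 42 and 46 reads in ARID1B libraries and 28, 27 and 23 reads in vector libraries. Of all genes tested, 9.44% lay higher with no overlap. CTSS, a cathepsin typical of macrophages and other antigen-presenting cells, was at 0.314, 0.366 and 0.392 FPKM in ARID1B libraries, against 0.520, 0.177 and 0.519 FPKM in vector libraries, which overlapped.

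Among the 7 genes of lipid handling, 4 had positive and 3 negative log2 changes, with a median of 0.06. PSAP, the precursor of the saposins that present lipids to hydrolases, was the most abundant member of all. It had 224, 236 and 217 FPKM in ARID1B libraries, against 264, 184 and 253 FPKM in vector libraries, and a log2 change of -0.03 (SE 0.17; limma, adjusted p = 0.950). ASAH1, the acid ceramidase, had the highest log2 change of the members. It was at 13.2, 17.3 and 14.9 FPKM in ARID1B libraries, against 13.5, 5.45 and 11.4 FPKM in vector libraries, where vector replicate 1 overlapped with the lowest ARID1B library. The log2 change of 0.61 missed the threshold (SE 0.31; limma, adjusted p = 0.543) and was 0.26 without vector replicate 2. Corrected for GC content and length, the change of ASAH1 was 0.41. LIPA, the lysosomal acid lipase, was at 14.4, 15.9 and 16.6 FPKM in ARID1B libraries, against 17.1, 6.82 and 14.8 FPKM in vector libraries. Its log2 change was 0.35 (SE 0.32; limma, adjusted p = 0.724) with all 6 libraries and -0.025 without vector replicate 2. The cholesterol exporters NPC1 and NPC2, the palmitoyl thioesterase PPT1 and the acid sphingomyelinase SMPD1 changed by 0.11, -0.03, 0.06 and -0.04 on the log2 scale.

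The 5 membrane proteins had 2 positive and 3 negative log2 changes. LAMP2, a heavily glycosylated protein of the lysosomal membrane that also serves in chaperone-mediated autophagy, was measured at 39.0, 43.1 and 43.8 FPKM in ARID1B libraries, against 38.4, 20.5 and 32.8 FPKM in vector libraries. All ARID1B libraries were above all vector libraries, though the nearest pair lay at 39.0 and 38.4 FPKM. The log2 change was 0.49 (SE 0.23; limma, adjusted p = 0.522), and 0.23 without vector replicate 2. Corrected for GC content and length, the change of LAMP2 was 0.34. SCARB2, the receptor that carries glucocerebrosidase to lysosomes, was at 51.4, 62.3 and 56.9 FPKM in ARID1B libraries, against 51.7, 33.2 and 45.5 FPKM in vector libraries. The lowest ARID1B library overlapped with the highest vector library (log2 change 0.40, SE 0.19; limma, adjusted p = 0.518, or 0.22 without vector replicate 2). Corrected for GC content and length, the change of SCARB2 was 0.24. CD63, a tetraspanin of late endosomes and lysosomes, was the most abundant membrane protein, with 181, 168 and 167 FPKM in ARID1B libraries, against 162, 251 and 181 FPKM in vector libraries. Its groups overlapped, with a log2 change of -0.18 (SE 0.19; limma, adjusted p = 0.752), or 0.0063 without vector replicate 2. LAMP1, the abundant partner of LAMP2, changed by -0.03 with an interval from -0.30 to 0.23.

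The 6 proton pump genes spanned log2 changes from -0.22 to 0.17, the narrowest range of the roles with more than 4 genes tested. ATP6V0E1, a small membrane subunit, was the most abundant, with 80.6, 73.7 and 74.7 FPKM in ARID1B libraries, against 71.2, 89.6 and 74.1 FPKM in vector libraries. The groups overlapped and the log2 change was -0.03 (SE 0.13; limma, adjusted p = 0.942). ATP6V1B2, a subunit of the cytosolic V1 part, was at 13.3, 11.8 and 12.4 FPKM in ARID1B libraries, against 10.9, 11.3 and 10.8 FPKM in vector libraries. Every ARID1B library was above every vector library, but the log2 change of 0.17 missed the threshold (SE 0.10; limma, adjusted p = 0.598) and was -0.024 with the correction for GC content and length. ATP6V0D1, which links the membrane and cytosolic parts of the pump, was at 11.1, 7.27 and 9.52 FPKM in ARID1B libraries, against 9.36, 13.4 and 10.3 FPKM in vector libraries. These overlapped, with a log2 change of -0.22 (SE 0.19; limma, adjusted p = 0.714), or -0.086 without vector replicate 2. The catalytic subunit ATP6V1A, the accessory subunit ATP6AP1 and the subunit ATP6V1H changed by 0.17, 0.09 and 0.02.

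**Figure D3:**
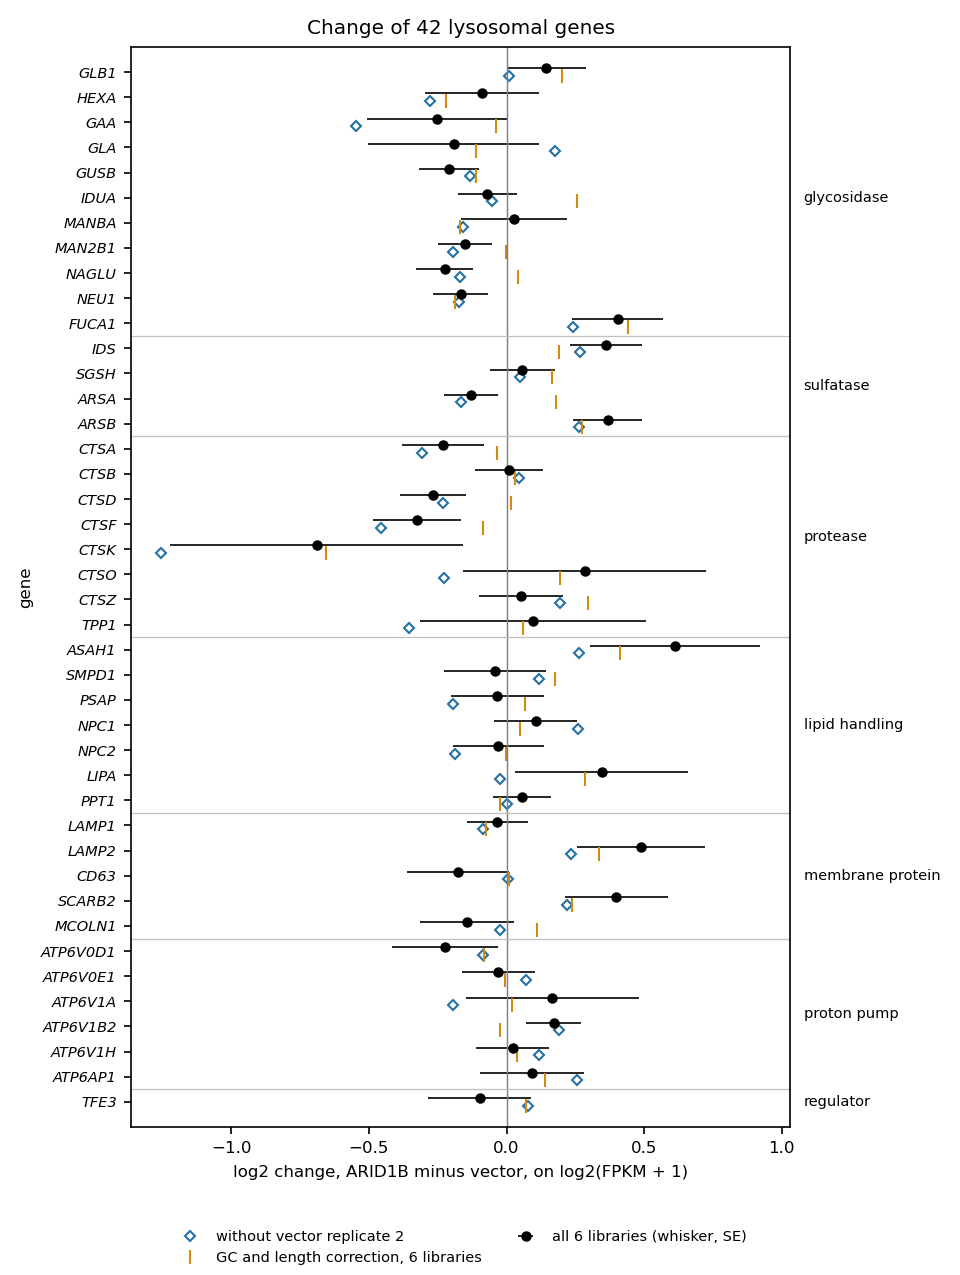
Log2 change (ARID1B minus vector, on log2(FPKM + 1)) of the 42 lysosomal genes tested, with black points and whiskers for all 6 libraries (± SE), open diamonds for the fit without vector replicate 2 and ticks for the correction for GC content and length. GLB1 lies at 0.145 with all 6 libraries and at 0.0093 without vector replicate 2, and CTSK lies at -0.69 and -1.25.

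The spread of the members across the vector libraries ran with GC content, the share of G and C bases in the longest transcript of a gene. Among the 21 members with the lower GC content (37.3% to 51.2%), vector replicate 2 was the lowest of the 6 libraries in 15 and the highest in 4. Among the 21 with the higher GC content (51.6% to 69.3%), it was the lowest in 3 and the highest in 10. The median log2 change was 0.11 in the lower and -0.14 in the higher GC members, and 0.07 and -0.09 without vector replicate 2. Across the 42 members, Spearman's rho of GC content was 0.575 with the deviation of vector replicate 2 from the other libraries and -0.676 with the log2 change. Over all genes with a GC value these were 0.452 and -0.55, so the members followed a relation that ran through the whole table. Without vector replicate 2 the rho with the log2 change of the members was -0.298. Genes are not independent replicates and all these values share the same 6 libraries. The part of GC content in the changes was not tested, but with a correction for GC content and length 26 members had a positive and 16 a negative log2 change, with a median of 0.04, beside 44.7% positive over all genes. None of the members passed the test, and 0.049% of all genes were higher and 0.0% lower. After this correction 8 members lay higher (8.7% of all genes) and 1 lower (10.1%) with no overlap between the groups.

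**Figure D4:**
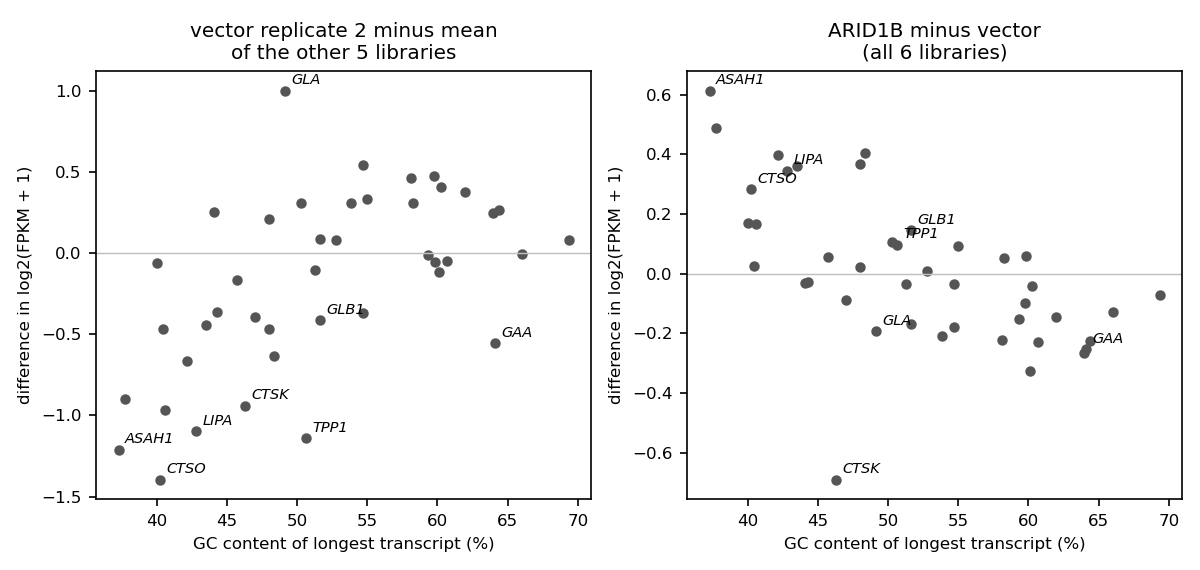
GC content of the longest transcript (%, x axis) of the 42 lysosomal genes against the deviation of vector replicate 2 from the mean of the other 5 libraries (left) and against the log2 change, ARID1B minus vector (right), both on log2(FPKM + 1), each point 1 gene. Low-GC genes such as ASAH1 lie low in the left and high in the right panel (Spearman's rho 0.575 and -0.676). GLA lies away from the trend in the left panel and CTSK in the right panel.

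Without vector replicate 2, the members whose groups did not overlap were 8 higher and 13 lower in ARID1B libraries, 21 of the 42 tested. Of all genes tested, 18.8% lay higher and 23.9% lower in these 5 libraries, 42.7% in all. Of the 42 members, 15 kept 1 direction in every alternative: FUCA1, ARSB, IDS, ASAH1, NPC1, LAMP2 and SCARB2 on the higher side and GUSB, MAN2B1, NEU1, GAA, CTSA, CTSF, CTSK and ATP6V0D1 on the lower side. Some of these came near 0 with the correction for GC content and length, such as MAN2B1 (-0.0011), GAA (-0.039) and NPC1 (0.050). The alternatives draw on the same libraries, and the share of all genes that kept 1 direction was not counted.

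Lysosomal genes outside the 45 were counted in lists by function. Of 24 other hydrolases and their cofactors, 21 were tested, 15 had a positive log2 change (47.6% of all genes did) and 5 were higher at an unadjusted p under 0.05 (4.64% of all genes were), with a median change of 0.12 and 0 past the adjusted threshold. CTSC, which activates serine proteases, was measured at 21.2, 20.3 and 21.2 FPKM in ARID1B libraries, against 14.1, 13.7 and 14.0 FPKM in vector libraries. The groups were well apart and the replicates close, with a log2 change of 0.55 (SE 0.095; limma, adjusted p = 0.231). The change of CTSC was 0.54 in the fit without vector replicate 2, where it passed (limma, adjusted p = 0.0330), and 0.36 when corrected for GC content and length (limma, adjusted p = 0.523). LGMN, the asparaginyl endopeptidase legumain, changed by 0.48 (limma, adjusted p = 0.306), again with no overlap. Its change was 0.54 without vector replicate 2 (limma, adjusted p = 0.0546). Corrected for GC content and length it was 0.58 (limma, adjusted p = 0.0912). With that correction 18 of these hydrolases were positive and 3 negative, beside 44.7% positive over all genes. Without vector replicate 2, 12 were positive and 9 negative. Of 24 other membrane proteins, 20 were tested and 15 had a positive change, beside 47.6% of all genes, but 10 did without vector replicate 2. An unadjusted p under 0.05 was met by 2 on the higher side (4.64% of all genes) and 1 on the lower (5.94%), and none passed. OSTM1, a partner of a lysosomal chloride transporter, was at 7.61, 8.12 and 8.89 FPKM in ARID1B libraries, against 5.83, 3.83 and 4.90 FPKM in vector libraries (log2 change 0.66; limma, adjusted p = 0.301). The change of OSTM1 was 0.53 without vector replicate 2 (limma, adjusted p = 0.0605). Corrected for GC content and length it was 0.49 (limma, adjusted p = 0.110). SLC17A5, the sialic acid exporter, changed by 0.32 (limma, adjusted p = 0.372). The median of this list was 0.15 with all libraries and 0.014 without vector replicate 2.

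Of 11 other proton pump subunits, 10 were tested, 7 were positive (47.6% of all genes), 1 was higher at an unadjusted p under 0.05 (4.64% of all genes) and none passed. The 2 with the smallest p were ATP6V0A1, the membrane subunit a1, with a log2 change of 0.26 (limma, adjusted p = 0.410), and ATP6AP2, an accessory subunit, with 0.34 (limma, adjusted p = 0.489). Of 16 genes that sort hydrolases to lysosomes, 10 were positive (47.6% of all genes), 2 were higher at an unadjusted p under 0.05 (4.64% of all genes) and none passed with all 6 libraries. SORT1, the sorting receptor sortilin, was at 15.0, 14.6 and 14.8 FPKM in ARID1B libraries, against 10.3, 4.81 and 9.59 FPKM in vector libraries. The ARID1B libraries were all higher, with a log2 change of 0.83 (limma, adjusted p = 0.372), and without vector replicate 2 the change of 0.53 passed (limma, adjusted p = 0.0376), while correcting all 6 libraries for GC content and length gave 0.69 (limma, adjusted p = 0.281). GNPTAB, which makes the mannose 6-phosphate tag of lysosomal enzymes, changed by 0.60 (limma, adjusted p = 0.429), or 0.35 without vector replicate 2.

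Some of these levels rest on bases that more than 1 gene shares. In the GENCODE annotation (release 29), over 10% of the exon bases of CTSD, IDS, MAN2B1, NAGLU and TPP1 lay in exons of another gene on the same strand, and of CTSA, CTSD, HEXA, IDUA and PPT1 in exons on the opposite strand. The library kit keeps strand, but whether the counting used it is not stated. The table also held named pseudogenes of GUSB (11), FUCA1 (1), IDS (1) and ATP6V0E1 (4), so reads of these genes could be split or shared.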

How the data were processed

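RNA of 6 IMR90 libraries was sequenced after a stranded mRNA preparation. The authors deposited FPKM values, 1 per gene and library, and no other column held values of samples outside the series (0 columns). The submitters' processing notes list hg19, DESeq2, HTSeq 0.5.3p9 and TopHat2 2.0.11, without their roles. FPKM values scale with library total and gene length, so a shift in a few abundant genes or in GC content between libraries moves every other value.

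Groups and replicate numbers came from the sample titles, and the columns of the table were matched to those titles. Whole reads were recovered from the steps of the deposited FPKM values. All 10416 genes tested came out whole within 0.002 reads, and reads that share a divisor would be too small by that factor. Tested members held at least 515 reads (FUCA1, in its lowest library), and the lowest of any member was 23 (CTSL2).

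The test was limma 3.58.1 (R 4.3.3) on log2(FPKM + 1) with trended variances. Genes whose mean over the 6 libraries reached 1 FPKM entered, with Benjamini-Hochberg adjustment over all genes tested and a threshold of 0.05. It was used in place of a count test because the values are FPKM, and the fold change of a low gene is understated on this scale. The SD measures the spread between libraries, which may be technical in part. The SE, intervals and p-values of limma use that spread after moving it toward a trend over all genes tested. Exact permutation tests were two-sided (Python 3.11.15, scipy 1.17.1, with plots in matplotlib 3.10.9). The scripts were tested on simulated data.

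Values in every library are given for GLB1, CTSA, NEU1, TFEB, TFE3, the most abundant member of each role and the 2 tested members of each role with the smallest unadjusted p, which are chosen by their values, as are the 2 genes given from each other list. The members, lists and tests were chosen with earlier results of these data known. Deviations from the group means of same-numbered libraries correlated at -0.461, -0.431 and -0.171. With 3 libraries in each group these values depend on each other. Whether same-numbered libraries shared a culture or a batch was not tested.

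Alternatives were quantile normalization, rescaling by median ratios, a pseudocount of 0.1, a filter at 5 FPKM or none, untrended variances, the replicate number as a block, a correction for length and GC content (a natural spline of 5 degrees of freedom for either, from the longest transcript in GENCODE release 29, 97.9% of genes matched) alone and with the block, voom on the recovered reads, each library left out and both libraries numbered 3 left out. The correction for GC content and length without vector replicate 2 was added after seeing the data. Promoters were RefSeq's (GRCh38.p14), and their coordinates are those of that assembly, not of hg19.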

Additional observations from a re-analysis of the deposited data

How the results depend on the processing

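Over 18 alternatives, 668 of 747 values of single members kept their direction and their side of the threshold, 78 turned in sign and 1 passed the threshold (GAA without vector replicate 2, adjusted p = 0.0440). No member was called higher in any alternative. The count of all genes called higher, 3 with all 6 libraries, was 0 without a filter, 0 with the replicate block, 0 without both libraries numbered 3, 1 with voom on recovered reads, 5 with the correction for GC content and length, 0 with the replicate block and that correction, and 193 (with 198 lower) with the correction and vector replicate 2 left out. Leaving out 1 library gave 0 to 125 genes higher and 0 to 199 lower, the upper ends without vector replicate 2. Members called lower ranged from 0 to 1, members with no overlap from 5 to 8 on the higher and from 5 to 13 on the lower side. The counts of 8 and 13 came without vector replicate 2, where 18.8% of all genes lay higher and 23.9% lower with no overlap. With all 6 libraries these shares were 9.44% and 11.1%, and those for the other libraries left out are not given here. The correction for GC content and length gave 8 members higher and 1 lower with no overlap, with the replicate block also 8 and 1, and with vector replicate 2 left out 14 and 8, where 21.8% and 26.6% of all genes with a GC value lay so. The replicate block changed no call of a member, and whether the numbers pair the libraries was not tested. The median change of the members lay between -0.03 and 0.04 in every alternative.

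Of the 42 members, 27 turned in sign in at least 1 alternative. With quantile normalization these were ATP6V0E1 (0.049), LAMP1 (0.037) and PSAP (0.077). With the correction for GC content and length, and with the same values when the replicate block was added, they were TFE3 (0.070), MCOLN1 (0.11), ARSA (0.18), NAGLU (0.04), MANBA (-0.17), CTSD (0.018), IDUA (0.25), PPT1 (-0.025), CD63 (0.0092), ATP6V1B2 (-0.024), SMPD1 (0.18) and PSAP (0.067). Without both libraries numbered 3 they were ATP6V1H (-0.020), NPC2 (0.022), CTSB (-0.014), LAMP1 (0.0091), PSAP (0.060) and HEXA (0.035). With the correction and vector replicate 2 left out, they were TFE3 (0.18), MCOLN1 (0.10), ARSA (0.0051), GLA (0.15), LIPA (-0.098), MANBA (-0.19), ATP6V0E1 (0.015), ATP6V1A (-0.25), IDUA (0.15), PPT1 (-0.049), CD63 (0.047), SMPD1 (0.22), TPP1 (-0.35), GLB1 (-0.0049) and CTSO (-0.30). Leaving out 1 library at a time turned ATP6V1H (from -0.050 to 0.12), ATP6AP1 (from -0.021 to 0.26), NPC2 (from -0.19 to 0.088), CTSB (from -0.062 to 0.085), SGSH (from -0.022 to 0.15), HEXA (from -0.28 to 0.021), MANBA (from -0.16 to 0.15), SMPD1 (from -0.14 to 0.12), TPP1 (from -0.35 to 0.36), CTSZ (from -0.051 to 0.20), PSAP (from -0.20 to 0.064), TFE3 (from -0.20 to 0.078), GLA (from -0.42 to 0.18), LIPA (from -0.025 to 0.58), ATP6V0E1 (from -0.094 to 0.069), ATP6V1A (from -0.19 to 0.39), CD63 (from -0.31 to 0.0063) and CTSO (from -0.23 to 0.60). The cause was not tested. GLB1 ranged from -0.0049 to 0.23 over all alternatives, with adjusted p between 0.490 and 0.999. Its 95% interval with all 6 libraries runs up to 1.40-fold.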

Other observations

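Of 20 genes of the TFEB family and of nutrient signaling at the lysosome, 15 were tested, 8 with a positive log2 change (47.6% of all genes), 1 lower at an unadjusted p under 0.05 (5.94% of all genes), and none past the adjusted threshold. MLST8, a subunit of the mTOR complexes, and LAMTOR2, a part of the Ragulator complex that anchors mTORC1 to lysosomes, had the smallest p, with log2 changes of -0.31 (limma, adjusted p = 0.462) and -0.34 (limma, adjusted p = 0.544), which were -0.022 and -0.17 when corrected for GC content and length. The median of this list was 0.04 with all 6 libraries and -0.15 without vector replicate 2. All 31 autophagy genes listed were tested, with 16 positive and 15 negative changes, a median of 0.0003, with an unadjusted p under 0.05 for 1 gene on the higher and 3 on the lower side, beside 4.64% and 5.94% of all genes, but none past the adjusted threshold. ULK1, the kinase that starts autophagy, was at 3.42, 3.41 and 3.37 FPKM in ARID1B libraries, against 4.43, 4.76 and 4.74 FPKM in vector libraries, a log2 change of -0.36 with no overlap (limma, adjusted p = 0.308). SQSTM1, the cargo receptor p62, was at 49.0, 55.1 and 48.8 FPKM in ARID1B libraries, against 64.4, 61.4 and 65.0 FPKM in vector libraries, also with no overlap (log2 change -0.32; limma, adjusted p = 0.410). Corrected for GC content and length, the changes of ULK1 and SQSTM1 were -0.19 and -0.16.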
